A study of Mus musculus with 18 samples.

Results

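The mouse mitochondrial genome is a small circular DNA that encodes 13 protein subunits of the respiratory chain and of ATP synthase, 2 ribosomal RNAs (rRNAs) and 22 transfer RNAs (tRNAs). All genes of the count table whose symbol starts with mt- were taken as members, which gave 36 of the 30583 genes listed: 13 mRNA genes, 2 rRNA genes and 21 tRNA genes. The tRNA gene mt-Tf was not analysed here. After removal of genes with low counts, 29 members could be tested, among them all 13 mRNAs, both rRNAs and 14 tRNAs. The 7 tRNA genes that did not pass (mt-Tv, mt-Ts1, mt-Td, mt-Tk, mt-Tg, mt-Tr and mt-Tt) held between 0 and 8 counts per library, and a count of 0 allows up to 3 counts in that library.

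RNA came from the left ventricle of 18 male C57BL/6JR mice aged 12 weeks, 1 library per mouse and 3 mice in each of 6 groups. In 5 groups the left anterior descending coronary artery was tied to cause a myocardial infarction, and tissue was taken either 10 min later or after 1 h, 6 h, 24 h or, at the latest, 72 h. The sham mice underwent the procedure with the suture passed but left untied. All mice received sodium pentobarbital for surgery and isoflurane at the end. The submitters name the infarcted region of the ventricle as the source of the RNA and cardiomyocytes as the cell type, but no cell separation is described, so the values are those of bulk tissue. By its title, the series followed gene expression as an infarct develops.

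Mitochondrial DNA is copied into long transcripts from both strands, and these are cut at the tRNAs that lie between most genes, which releases mRNAs and rRNAs. A dedicated polymerase (Polrmt) with the packaging factor Tfam makes the transcripts, and the proteins Lrpprc and Slirp keep the mRNAs stable and help add their poly(A) tails. Cardiac muscle is rich in mitochondria, so these transcripts make up a large part of its RNA. The mRNAs and rRNAs of mitochondria carry short poly(A) tails, and for some mRNAs the tail also completes the stop codon. The libraries were made from poly(A) RNA, so the ends that receive the tail are shown here in the reference (GRCm38, GENCODE M21), 5′ to 3′, with the bases of the stop signal in capitals.

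mt-Co3 (chrM:9373-9390, plus strand): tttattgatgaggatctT
mt-Nd4 (chrM:11527-11544, plus strand): ttacaggcctgacaataT
mt-Cytb (chrM:15271-15288, plus strand): tactaaaattatatccaT
mt-Co1 (chrM:6855-6872, plus strand): tatgtaaaagtaaaaTAA
mt-Nd6 (chrM:13552-13569, minus strand): gagattactcgagatTAA

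The first 3 of these genes end with the first base of a stop codon only, and the other 10 mRNA genes end with a complete codon. mt-Nd6 is the mRNA encoded on the minus strand, and in human cells its transcript is known for lacking a long tail. Fragments of 250 to 300 bp were selected, while the mt tRNA genes are 59 to 75 bases long. A count on a tRNA gene therefore comes from a longer piece of RNA and does not measure the mature tRNA.

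Mt transcripts took a large and similar part of the library counts up to 6 h and a much smaller one at 72 h. The share of all 36 genes was 25.31%, 26.13% and 23.83% in the sham libraries. At 10 min it was 27.38%, 22.29% and 24.78%, at 1 h 25.75%, 23.73% and 26.79%, and at 6 h 27.32%, 25.11% and 22.83%. The 24 h libraries held 22.83%, 17.75% and 24.02%, so that 2 of them lay below the lowest sham library. The 72 h libraries held 10.53%, 10.2% and 8.41%, below every other library of the series. Libraries held 18.2 to 25.1 M counts (M, mega), and the 95% Wilson interval of a library's share reached at most 0.0205 percentage points to either side. Without molecular identifiers, intervals and floors cover counting error only.

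The mRNAs made up nearly all of this. Their share was 24.4% ± 1.179 in sham (SD, n = 3 mice, as for all group values here), against 20.8% ± 3.15 at 24 h and 9.54% ± 1.12 at 72 h, or 39.0% of the sham share. Both rRNAs together held 0.595% ± 0.0170 in sham, 0.642% ± 0.194 at 24 h and 0.164% ± 0.0155 at 72 h, or 27.6% of sham. The tRNA genes held 0.0556% ± 0.00716 in sham, 0.0554% ± 0.0126 at 24 h and 0.0135% ± 0.00232 at 72 h, or 24.3% of sham. In each class the 72 h libraries lay below all others. A permutation test over the 6 groups gave p = 0.00143 for the mRNA share, p = 0.00742 for rRNA and p = 0.00583 for tRNA (100000 resamples, adjusted p over 12 such tests of 0.00628, 0.0168 and 0.0168). Between sham and any single time, an exact permutation test of 3 against 3 cannot go below p = 0.1, which is the value reached at 72 h for each class. On the log2 scale the 72 h shares differed from sham by -1.36 (mRNA), -1.86 (rRNA) and -2.05 (tRNA), and scaling by trimmed mean of M-values (TMM) library size put these at -1.95, -2.45 and -2.64.

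**Figure D1:**
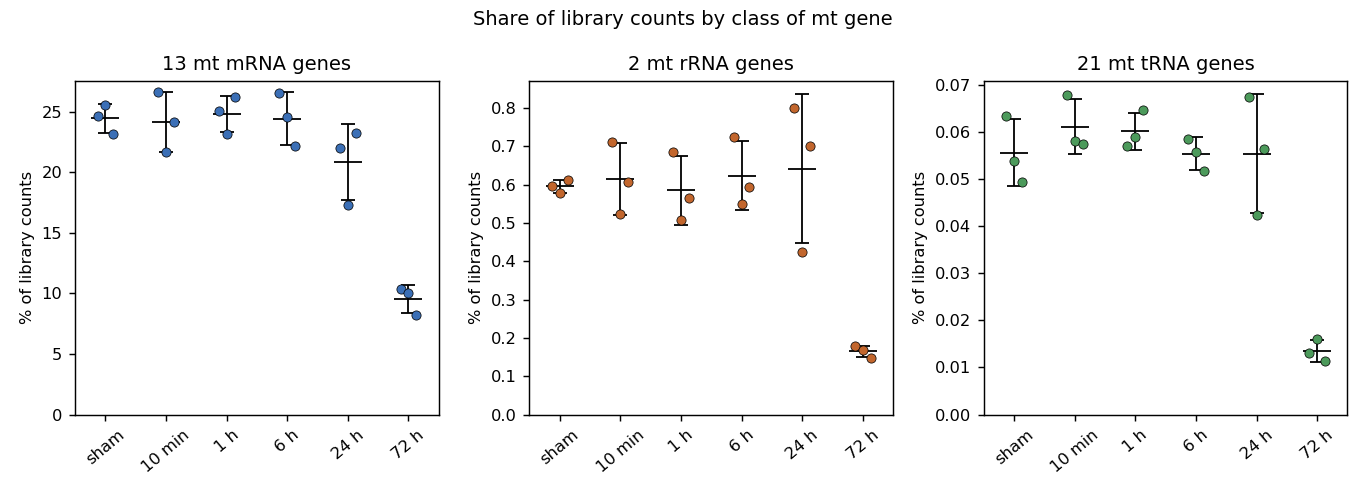
Share of library counts (%, linear axis from 0) held by the 13 mt mRNA, 2 mt rRNA and 21 mt tRNA genes in each library (points), with the mean (horizontal line) and SD (whiskers) of 3 mice per group. In each panel the 3 libraries at 72 h lie below all others, at 8.25% to 10.34% for mRNA, 0.1476% to 0.1782% for rRNA and 0.01146% to 0.01602% for tRNA.

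Marker lists of the cell types in the tissue differed in level between sham and 72 h. The 12 cardiomyocyte markers summed to between 79270 and 85680 CPM (counts per 1 M, TMM-scaled) in sham, 35070 to 54380 at 24 h and 20590 to 27250 at 72 h. The 10 leukocyte markers summed to 188 to 207 CPM in sham and 2687 to 3507 at 72 h, and the 8 fibroblast markers to 804 to 914 and 12450 to 16060. Endothelial markers (7 genes) went from between 1311 and 1438 CPM to between 794 and 1022, and red blood cell markers (5 genes) from between 534 and 794 to between 228 and 345. No marker of any list was at 0 in a whole group. In bulk tissue, fewer cells of a type and less RNA per cell cannot be told apart, and the part of these markers in the mt values was not tested.

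Gene by gene, no member was called against sham at 10 min, 1 h or 6 h. Calls are by edgeR's quasi-likelihood test at a Benjamini-Hochberg adjusted p under 0.05 over all 16311 genes tested, which called 0.0736% of genes at 10 min, 0.294% at 1 h and 28.4% at 6 h. At an unadjusted p under 0.05 there were 6, 4 and 2 members, and DESeq2 called 0, 1 and 1. At 24 h, 6 members were lower, 4 mRNAs and 2 tRNA genes, where 20.2% of all genes were called lower. At 72 h all 29 tested members were lower, where 32.2% of all genes were called lower. A test over all times called 29 of 29 members and 78.4% of genes. The median log2 fold change at 72 h was -2.19 over the 13 mRNAs, -2.42 over the rRNAs and -2.57 over the 14 tRNA genes, against 0.03 over all genes tested. When library totals replaced TMM factors, the median of all genes shifted (6 h, -0.12; 24 h, 0.20; 72 h, 0.61), and 28 members were called lower at 72 h, mt-Ts2 being lost. At 24 h those totals gave 2 members lower and 1 higher.

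The 7 complex I subunits encoded in mitochondria build the proton-pumping arm of the enzyme that takes electrons from NADH. mt-Nd1, one of them, held 3.05%, 2.98% and 2.92% of sham counts, 2.42%, 2.15% and 2.56% at 24 h, and 1.30%, 1.20% and 1.10% at 72 h. These ranges did not overlap, and its log2 fold change against sham was -0.52 (SE 0.16, adjusted p = 0.0121 by edgeR) at 24 h and -1.90 (SE 0.16, adjusted p = 1.05e-08) at 72 h. mt-Nd6 held 0.666%, 0.678% and 0.580% in sham, 0.476%, 0.416% and 0.528% at 24 h, and 0.222%, 0.221% and 0.190% at 72 h. Its libraries at 24 h lay below all 3 of sham, with a log2 fold change of -0.63 (SE 0.15, adjusted p = 0.00246 by edgeR), and at 72 h it was -2.19 (SE 0.15). mt-Nd4 fell by 0.44 on the log2 scale at 24 h (adjusted p = 0.0386 by edgeR) and by 2.11 at 72 h. mt-Nd2 and mt-Nd5 were called at 72 h, at -1.97 and -1.73. mt-Nd4l held 0.0251%, 0.0392% and 0.0326% of sham counts, 0.0633%, 0.0525% and 0.0551% at 10 min and 0.00749%, 0.00879% and 0.00587% at 72 h. Its 10 min libraries lay above sham, with a log2 fold change of 0.81 that was not called (adjusted p = 0.382 by edgeR). The 24 h calls of mt-Nd1 and mt-Nd4 were lost without replicate 2 at 24 h, and that of mt-Nd4 also without replicate 1 at 24 h or replicate 1 or 2 of sham.

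mt-Cytb, the mitochondrial subunit of complex III, held 4.16%, 4.29% and 3.88% of the counts in sham and 1.76%, 1.64% and 1.34% at 72 h, a log2 fold change of -1.96 (SE 0.17, adjusted p = 1.23e-08 by edgeR). mt-Co1 forms the catalytic core of complex IV, where oxygen is reduced, and was the member with the most counts. It held 10.06%, 10.51% and 9.62% of sham libraries, 9.57%, 6.93% and 9.60% at 24 h, and 4.43%, 4.30% and 3.55% at 72 h. The 24 h libraries lay just under the sham libraries or, in replicate 2, well under them. mt-Co1 had a log2 fold change of -0.39 at 24 h (adjusted p = 0.0974 by edgeR) and -1.88 at 72 h (SE 0.19, adjusted p = 1.12e-07). The other mitochondrial subunits of complex IV, mt-Co2 and mt-Co3, were at -2.31 and -3.07 at 72 h.

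The ATP synthase subunits mt-Atp6, part of the proton channel, and mt-Atp8 share 43 bases of overlapping sequence. mt-Atp6 held 0.206%, 0.237% and 0.240% of sham counts, 0.142%, 0.187% and 0.172% at 24 h and 0.0431%, 0.0565% and 0.0428% at 72 h. Its ranges did not overlap, and it was at -0.65 at 24 h (SE 0.21, adjusted p = 0.0195 by edgeR) and -2.85 at 72 h (SE 0.23). The 24 h call of mt-Atp6 was lost without replicate 1 at 24 h or replicate 2 of sham, and when counts on its nuclear copy were added to it (-0.42). mt-Atp8 was at -2.39 at 72 h (adjusted p = 1.59e-05 by edgeR).

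Counts on both rRNAs, the core of the mitochondrial ribosome's subunits, were lower at 72 h. The libraries were made from poly(A) RNA, so these counts cover only the rRNA captured that way and do not measure total rRNA. The small-subunit rRNA mt-Rnr1 held 0.218%, 0.198% and 0.209% in sham and 0.0704%, 0.0579% and 0.0564% at 72 h (log2 fold change -2.34, SE 0.20, adjusted p = 1.5e-08 by edgeR). The large-subunit rRNA mt-Rnr2 held 0.379%, 0.380% and 0.403% in sham and 0.108%, 0.110% and 0.0912% at 72 h (-2.50, SE 0.25). mt-Rnr1 held 0.1912%, 0.1496% and 0.1843% at 10 min and 0.1841%, 0.1353% and 0.1555% at 1 h. These early libraries also lay below all 3 of sham, with log2 fold changes of -0.26 and -0.37 that were not called (adjusted p = 0.876 and 0.934 by edgeR). The ratio of mt-Rnr1 to mt-Rnr2 counts was 0.575, 0.519 and 0.518 in sham. It was 0.368, 0.400 and 0.436 at 10 min, 0.368, 0.364 and 0.379 at 1 h and 0.653, 0.529 and 0.618 at 72 h. At 6 h it was 0.388, 0.387 and 0.522, and at 24 h 0.448, 0.559 and 0.468. The libraries at 10 min and 1 h lay below all of sham and of 72 h, as did replicates 1 and 2 at 6 h and replicates 1 and 3 at 24 h. This ratio was chosen after its values were seen and was not tested.

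**Figure D2:**
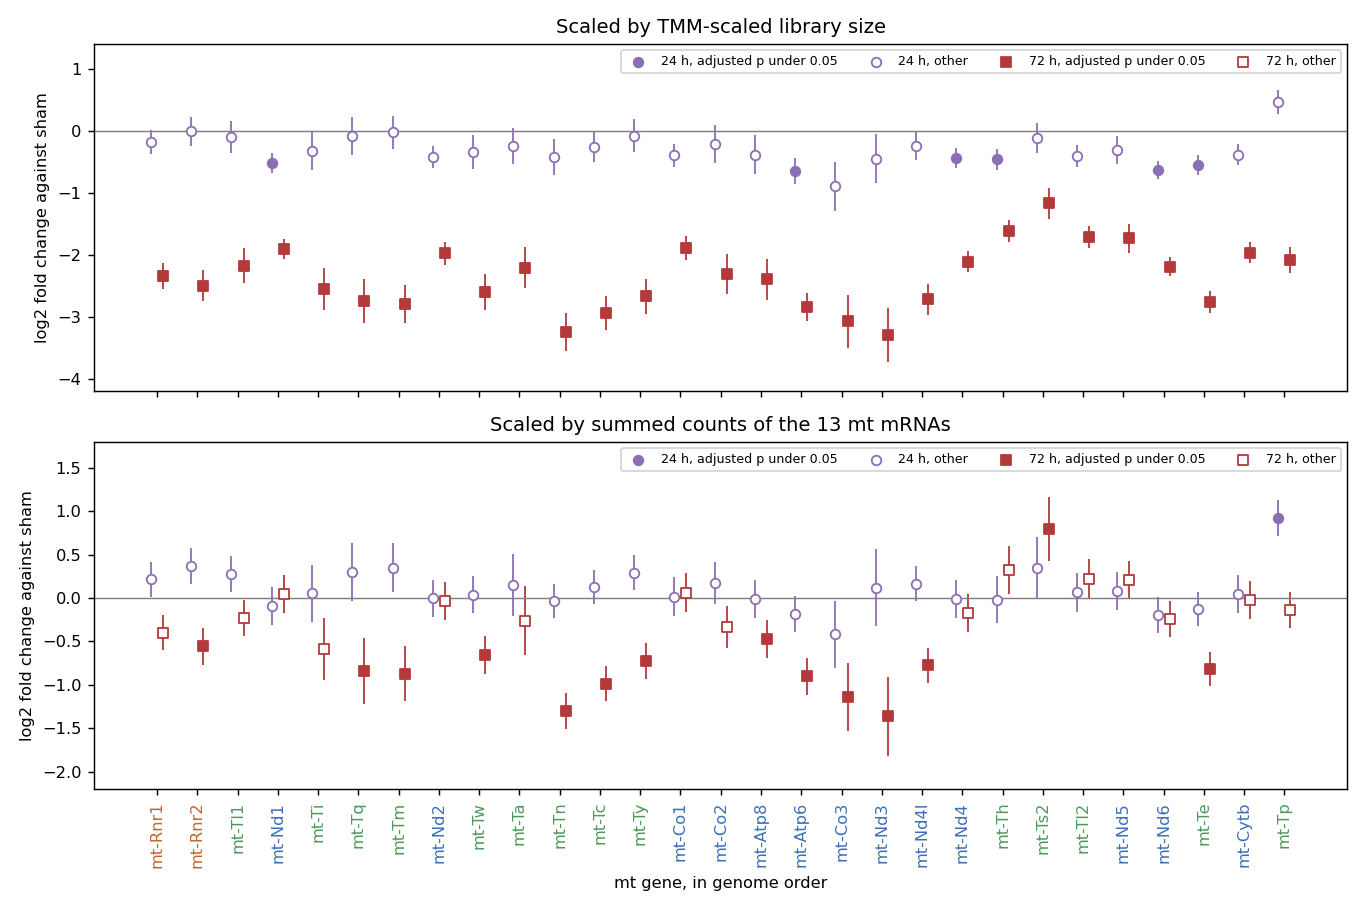
Log2 fold change against sham (points, with SE) at 24 h (circles) and 72 h (squares) for the 29 tested members in genome order, scaled by TMM library size (top) and by the summed counts of the 13 mt mRNAs (bottom). Filled symbols have an edgeR adjusted p under 0.05, and gene names are blue for mRNA, orange for rRNA and green for tRNA. All squares in the top panel are filled and lie between -3.29 (mt-Nd3) and -1.17 (mt-Ts2), while the bottom panel has 14 filled squares and 1 filled circle, mt-Tp.

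Between consecutive times the members changed late. No member was called between 10 min and 1 h (0.307% of genes called, 3 members at an unadjusted p under 0.05, 0 by DESeq2), and 1, mt-Tm, was called higher from 1 h to 6 h (14.5% of genes called higher). From 6 h to 24 h, 8 members were lower (13.7% of genes called lower) and 1, mt-Tp, was higher (14.2% called higher). The 8 were mt-Nd1, mt-Nd2, mt-Nd4, mt-Nd4l, mt-Nd6, mt-Co1, mt-Atp6 and mt-Tl1, with log2 fold changes from -0.84 (mt-Atp6) to -0.49 (mt-Nd4). When only the 6 libraries of both times were fitted, 0 members were called, and limma called 1, higher. With library totals this split became 1 lower and 1 higher, and 2 members in all were called without replicate 2 at 24 h or without replicate 1 at 6 h. From 24 h to 72 h all 29 were lower (26.1% of genes called lower).

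Next the members were set against one another, by scaling each library to the summed counts of its 13 mt mRNAs. In this fit a change of all mt transcripts together cancels. Among members, 0 were called at 10 min (0.0368% of genes called), 1 was lower at 1 h (0.0307% called lower), 1 was higher at 6 h (8.73% called higher) and 1 was higher at 24 h (40.1% called higher). At 10 min 7 members had an unadjusted p under 0.05 and DESeq2 called 3. At 72 h, 13 members were lower, where 0.582% of all genes were called lower, and 1 was higher, where 89.6% of all genes were. The median log2 fold change over all genes was 1.98 on this scale, so these shares of all genes mostly reflect the scale. With 14711 of 16311 genes called, adjusted p-values lie close to unadjusted ones, and 14 members had an unadjusted p under 0.05. The 13 lower members were 5 mRNAs (mt-Atp6, mt-Atp8, mt-Co3, mt-Nd3 and mt-Nd4l), the rRNA mt-Rnr2 and 7 tRNA genes, and the higher one was the tRNA gene mt-Ts2. On this scale a test over all times called 15 of 29 members and 94.1% of genes. Of the 14 members called at 72 h it did not call mt-Nd3, mt-Atp8, mt-Co3 and mt-Ts2 (adjusted p = 0.0667, 0.0794, 0.200 and 0.167 by edgeR). The genes with most counts held similar shares of the mRNA pool in sham and at 72 h. mt-Co1 made up 40.8%, 41.2% and 41.5% of mt mRNA counts in sham and 42.9%, 42.9% and 43.0% at 72 h, all above sham. As mt-Co1 is itself a large part of that total, its share can move little. mt-Cytb made up 16.9%, 16.8% and 16.8% in sham and 17.1%, 16.4% and 16.2% at 72 h. Its 10 min libraries lay below sham, at 14.8%, 15.0% and 15.8%, a difference that was not called. In this fit the spread of single genes was pulled strongly to that of all genes (prior degrees of freedom 150.2, against 6.3 with TMM scaling), so its p-values rest mostly on the common spread. When the geometric mean of the mt mRNAs replaced their sum, 11 members were called, and the calls of mt-Atp8, mt-Co3, mt-Nd4l, mt-Rnr2, mt-Tm, mt-Tq, mt-Tw and mt-Ty were lost. Only mt-Atp6, mt-Nd3, mt-Tc, mt-Te, mt-Tn and mt-Ts2 kept their calls, so the rest of the 11 were not called with the sum. The call of mt-Rnr2 (-0.56, adjusted p = 0.0105 by edgeR) was also lost without replicate 3 of sham.

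The mRNAs that fell most relative to the others lie next to each other on the mitochondrial genome, in a stretch that has a near-identical nuclear copy. Nuclear copies of mitochondrial DNA are insertions into nuclear chromosomes, and reads from identical sequence cannot be assigned to one copy or the other. On chromosome 1, 7 annotated genes between chr1:24611535 and chr1:24616197 match the mitochondrial bases chrM:6390-11042 in the same order, with spacing that differs by at most 10 bases. The middle of the match of mt-Co3 with its copy Gm28437 (chr1:24613189-24613971) is shown with a more diverged pair, mt-Nd2 with Gm13339 (chr2:22590024-22590533). Bases that differ within a pair are in capitals.

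mt-Co3 (chrM:8968-9027): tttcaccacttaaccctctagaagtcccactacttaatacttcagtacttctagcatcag
Gm28437: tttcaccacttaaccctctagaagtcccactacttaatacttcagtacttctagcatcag
mt-Nd2 (chrM:4667-4726): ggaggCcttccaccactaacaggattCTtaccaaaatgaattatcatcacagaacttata
Gm13339: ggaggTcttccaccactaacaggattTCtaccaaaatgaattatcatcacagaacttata

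The first pair has 0 mismatches over 783 aligned bases and the other has 17 over 510. The copies of mt-Co2, mt-Atp6, mt-Co3 and mt-Nd4l are 100% identical and that of mt-Nd3 is 99.7% identical, over nearly the whole gene. mt-Nd4 and mt-Co1 are matched over 63.6% and 31.3% of their length. mt-Atp8 lies within the same stretch, and no annotated copy of it was found. How the authors counted reads that fit several places is not given in the sources used here, so values of these genes are uncertain.

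The 6 mRNAs wholly inside this stretch had low levels per length and wide spread. In sham they ran from 162 (mt-Atp8) to 4128 (mt-Co2) FPKM (counts per kb of annotated gene length and 1 M library counts, computed from the counts), and the other 7 mRNAs from 9499 (mt-Nd5) to 65150 (mt-Co1). As a share of mt mRNA counts, the coefficient of variation between the 3 libraries of a group had a median over the 6 groups of 14.3% to 36.0% inside and 2.31% to 8.35% outside. The highest, mt-Co3, held 0.230%, 0.391% and 0.176% of sham counts, so that sham libraries alone spread widely. Relative to the mt mRNA total, 5 of the 6 inside were lower at 72 h, from -1.36 (mt-Nd3, adjusted p = 0.0125 by edgeR) to -0.47 (mt-Atp8, adjusted p = 0.0375), and mt-Co2 had -0.34. None of the other 7 was called, with values between -0.24 and 0.21. These 7 made up 96.2% to 98.2% of the total used for scaling, which by itself holds their joint value near 0. The test over all times on this scale called mt-Atp6 and mt-Nd4l among the 6 inside, but not mt-Nd3, mt-Co3, mt-Atp8 or mt-Co2. With the geometric mean as the scale, the calls of mt-Atp8, mt-Co3 and mt-Nd4l, 3 of the 5, were lost. The call of mt-Co3 was lost without replicate 3 at 72 h, and that of mt-Atp8 without replicate 2 or 3 at 72 h or replicate 1 or 3 of sham.

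The copies on chromosome 1 together held 0.329% ± 0.0707 of library counts in sham and 0.111% ± 0.0307 at 72 h. All 11 copies that passed the filter were lower at 72 h, with a median log2 fold change of -2.24. For the mt-Co3 pair, 11.3% to 39.7% of the joint counts lay on the copy in sham and 22.6% to 37.8% at 72 h. For the mt-Nd3 pair these were 51.5% to 57.0% in sham and 64.4% to 70.9% at 72 h. The mt-Atp6 pair went from between 20.6% and 21.2% to between 29.1% and 48.5%, and the mt-Nd4l pair from between 19.7% and 24.9% to between 28.47% and 29.98%. The share on the copy was higher at 72 h without overlap for mt-Nd3, mt-Atp6 and mt-Nd4l, and the ranges overlapped for mt-Co3, mt-Co2, mt-Nd4 and mt-Co1. Earlier times also differed from sham without overlap, so this was not particular to 72 h. The mt-Nd3 pair had 61.09% to 67.35% at 10 min and 67.26% to 68.53% at 6 h, and the mt-Atp6 pair 28.76% to 36.26% at 24 h. The mt-Nd4l pair lay below sham at 10 min, at 15.34% to 18.48%. Adding the counts of the copies to their mt genes gave 14 members called at 72 h relative to the mt mRNA total and 29 with TMM scaling, the same numbers as without them.

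**Figure D3:**
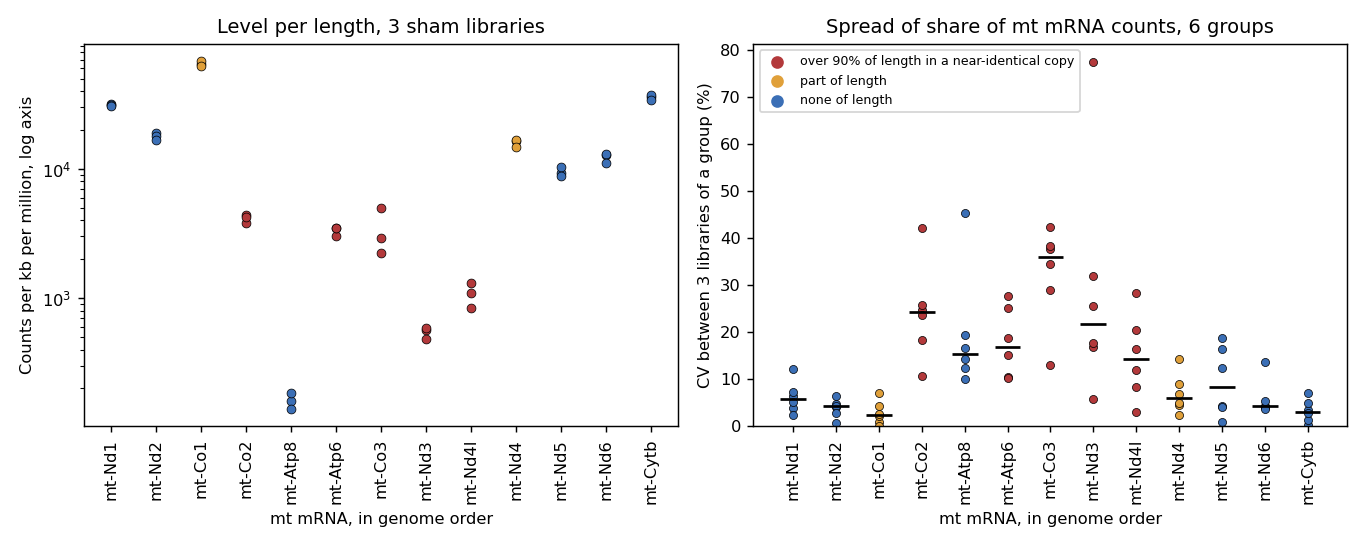
Left, FPKM (counts per kb and 1 M library counts, log axis) of the 13 mt mRNAs in the 3 sham libraries. Right, coefficient of variation (%) between the 3 libraries of a group of each gene's share of mt mRNA counts, 1 point per group and the median as a line; red marks genes with over 90% of their length in a copy of at least 99% identity, yellow those with part of it and blue those with none. The red genes and mt-Atp8 lie at or under 4128 FPKM as group means, and the others at or over 9499.

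The tRNA genes divided along the genome in a similar way. All 5 tRNA genes inside the copied stretch (mt-Ts1, mt-Td, mt-Tk, mt-Tg and mt-Tr) were among the 7 with at most 8 counts, and 14 of the 16 outside could be tested. Sequences are given for 5 of the tRNA genes whose differences in time or in rank at 72 h are described below. The anticodon, as found by a search for a paired anticodon stem, is in capitals, with T in place of U.

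mt-Tl1, leucine (chrM:2676-2750, plus strand): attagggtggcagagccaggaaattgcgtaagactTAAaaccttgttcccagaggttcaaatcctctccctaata
mt-Tm, methionine (chrM:3845-3913, plus strand): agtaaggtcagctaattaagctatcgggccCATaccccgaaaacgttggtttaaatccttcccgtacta
mt-Tn, asparagine (chrM:5089-5159, minus strand): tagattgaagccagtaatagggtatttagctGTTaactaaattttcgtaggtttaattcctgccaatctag
mt-Ts2, serine (chrM:11613-11671, plus strand): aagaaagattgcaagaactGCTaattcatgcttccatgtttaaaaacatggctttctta
mt-Tp, proline (chrM:15356-15422, minus strand): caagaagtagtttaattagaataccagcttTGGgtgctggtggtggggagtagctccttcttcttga

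mt-Tp was highest at 24 h. It held 91.2, 65.3 and 73.2 counts per 1 M library counts (unscaled CPM) in sham, 56.2, 50.3 and 49.6 at 10 min, and 74.2, 67.6 and 91.3 at 1 h. It held 62.3, 52.2 and 84.1 at 6 h, 116.7, 129.7 and 116.8 at 24 h, and 22.8, 36.3 and 22.5 at 72 h. All 24 h libraries lay above the 15 others and all 72 h libraries below them. Relative to the mt mRNA total its log2 fold change at 24 h was 0.92 (SE 0.20, adjusted p = 9.32e-05 by edgeR), and leaving out any single replicate did not end this call. With TMM scaling it was 0.47 against sham (SE 0.20, adjusted p = 0.0656) and 0.57 against 6 h (adjusted p = 0.0418); the latter call was lost without any 1 replicate at 24 h, or without replicate 1 or 2 at 6 h. mt-Tp lies on the minus strand just past the end of mt-Cytb and mt-Tt. Use of strand in counting is not given in the sources used here, so reads of either strand cannot be told apart there. The same limit holds for the other tested members on the minus strand: mt-Nd6, mt-Tq, mt-Ta, mt-Tn, mt-Tc, mt-Ty and mt-Te.

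mt-Tm had a low point at 1 h. Its unscaled CPM were 6.43, 5.64 and 7.07 in sham, 5.61, 5.68 and 5.62 at 10 min, 3.27, 2.18 and 2.92 at 1 h and 8.26, 8.86 and 5.09 at 6 h. The 1 h libraries lay below all libraries except those at 72 h, which held 1.16, 1.86 and 1.09. From 1 h to 6 h the log2 fold change was 1.48 (SE 0.28, adjusted p = 0.00107 by edgeR). Against sham at 1 h it was -1.16 with TMM scaling (adjusted p = 0.14) and -1.22 relative to the mt mRNA total (adjusted p = 0.0203), a call that held without replicate 2 of sham but not without any other single replicate. Such levels rest on few reads: mt-Tm had a mean of 110.4 counts per library.

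mt-Tl1, mt-Tw and mt-Ta had their highest library at 10 min, replicate 1, but only mt-Tl1 was called at an early time. mt-Tl1 held 30.5, 29.35 and 27.96 unscaled CPM in sham, 62.9, 39.2 and 44.1 at 10 min, 51.7, 46.2 and 51.6 at 1 h and 49.3, 45.9 and 34.9 at 6 h. These libraries all lay above sham. Its log2 fold change with TMM scaling was 0.73 at 10 min, 0.79 at 1 h and 0.68 at 6 h (adjusted p = 0.535, 0.586 and 0.0665 by edgeR). Relative to the mt mRNA total mt-Tl1 was called at 6 h only (0.56, adjusted p = 0.0442), and this was lost without replicate 1 or 2 at 6 h or any 1 of the sham libraries. mt-Tw held 27.9, 26.2 and 20.2 unscaled CPM in sham and 51.2, 39.6 and 39.1 at 10 min (log2 fold change 0.80, adjusted p = 0.494 by edgeR).

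The tRNA genes called at 24 h with TMM scaling were mt-Te, for glutamate, and mt-Th, for histidine. mt-Te held 92.7, 98.4 and 78.0 unscaled CPM in sham, 66.8, 58.0 and 85.1 at 24 h and 20.3, 22.8 and 16.3 at 72 h. The 24 h and sham libraries overlapped, and mt-Te was at -0.55 (SE 0.17, adjusted p = 0.0126 by edgeR), a call lost without replicate 2 at 24 h or of sham. mt-Th was at -0.46 (adjusted p = 0.0385 by edgeR), and its call was kept only without replicate 2 of sham when single replicates were left out.

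The tRNA genes differed in how far they fell by 72 h. mt-Tn held 142.7, 107.1 and 94.1 unscaled CPM in sham and 16.3, 24.1 and 14.1 at 72 h, a log2 fold change of -3.24 with TMM scaling (SE 0.31, adjusted p = 3.02e-07 by edgeR) and -1.30 relative to the mt mRNA total (SE 0.21, adjusted p = 3.84e-09). mt-Tc, its neighbour, held 154.4, 127.6 and 114.5 in sham and 24.2, 31.1 and 22.7 at 72 h, and was at -0.98 relative to mt mRNA. The other tRNA genes called lower on that scale were mt-Te (-0.82), mt-Tm (-0.87), mt-Tq (-0.84), mt-Tw (-0.66) and mt-Ty (-0.73). The call of mt-Tq was lost without replicate 1 or 3 at 72 h or replicate 3 of sham. The cluster between mt-Nd4 and mt-Nd5 had smaller falls with TMM scaling: mt-Th -1.62, mt-Ts2 -1.17 and mt-Tl2 -1.72. mt-Ts2 averaged 42.8 counts per library, the fewest among tested members, and ranged from 26 to 60 counts. Its value relative to mt mRNA was 0.79 (adjusted p = 0.0361 by edgeR), which was lost without replicate 2 or 3 at 72 h or of sham.

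**Figure D4:**
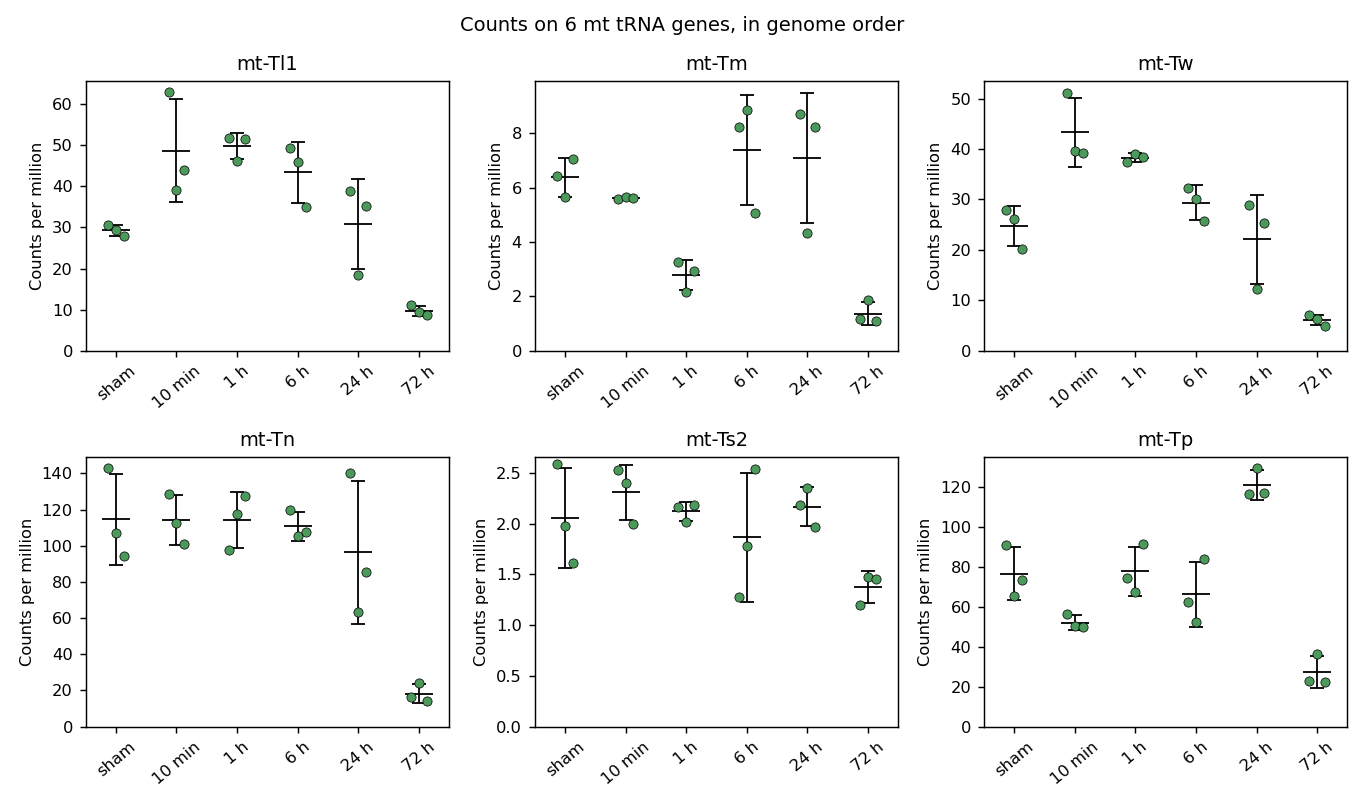
Counts per 1 M library counts (linear axis from 0) on 6 mt tRNA genes in each library (points), with the mean and SD of 3 mice per group. mt-Tp is highest at 24 h (116.7 to 129.7), mt-Tm is low at 1 h (2.18 to 3.27), and of the 6 genes mt-Ts2 differs least between sham and 72 h.

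Ratios of summed counts gave the classes relative to one another, as captured in poly(A) libraries and not as total RNA. The rRNA to mRNA ratio was 0.0242, 0.0227 and 0.0264 in sham and 0.0172, 0.0167 and 0.0179 at 72 h, with no overlap (6 groups, permutation p = 0.00157, adjusted p = 0.00628). The tRNA to mRNA ratio was 0.00258, 0.00212 and 0.00214 in sham and 0.00126, 0.0016 and 0.00139 at 72 h (permutation p = 0.00157, adjusted p = 0.00628). On the log2 scale these 72 h ratios differed from sham by -0.50 and -0.69. With geometric means over the genes in place of sums the differences were -0.07 and 0.40, so that the tRNA to mRNA ratio turned in direction and the 6-group p of the rRNA ratio rose to 0.0568. The geometric mean, with 1 count added, covers all 21 tRNA genes, including the untested ones with at most 8 counts, which can hardly fall. All 14 tested tRNA genes were lower at 72 h (median -2.57, mRNAs -2.19). The part of the untested genes in the turn was not tested. The ratio of mt-Nd6 to the other 12 mRNAs was 0.0278, 0.0273 and 0.0257 in sham and 0.0219, 0.0225 and 0.0236 at 72 h. Its log2 difference from sham was similar at every time: -0.24 at 10 min, -0.18 at 1 h, -0.19 at 6 h, -0.205 at 24 h and -0.25 at 72 h, with overlap with sham at 6 h only. The mt-Nd6 ratio had a permutation p of 0.101 over the 6 groups (adjusted p = 0.173), which became 0.0183 without replicate 1 and 0.0123 without replicate 3 at 6 h. With geometric means its 72 h difference turned to 0.18 and the 6-group permutation p was 0.00635.

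Mitochondrial and nuclear genes supply subunits of the same complexes, so their transcripts were compared within each complex. Nuclear subunits fell too: at 72 h the test called 37 of 37 complex I, 4 of 4 complex II, 9 of 9 complex III, 12 of 12 complex IV and 17 of 17 complex V genes lower, with medians from -1.66 (IV) to -1.57 (I), where 32.2% of all genes were called lower. Examples are Ndufa10 of complex I, which went from 544.5 ± 26.6 to 139.9 ± 21.3 CPM (log2 fold change -1.96, adjusted p = 4.66e-10 by edgeR). Cox7a1, the muscle form of a complex IV subunit, went from 1126 ± 96.8 to 182 ± 56.4 CPM (-2.63, adjusted p = 1.9e-09). At 24 h 35 of 37 complex I genes and all of the other 4 lists were called lower, with medians between -0.60 and -0.57, where 20.2% of all genes were called lower, while 4 of 13 mt mRNAs were called and their median was -0.42. The difference between the 24 h values of nuclear and mt genes was tested only through the ratios.

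The ratio of mt mRNA to nuclear subunit counts was 4.14, 4.28 and 3.96 in sham, 4.38, 3.59 and 6.27 at 24 h and 3.12, 4.06 and 3.14 at 72 h. The 24 h libraries lay on both sides of sham and 1 of the 72 h libraries lay within it. Over the 6 groups the permutation p was 0.324 (adjusted p = 0.355), and with geometric means it was 0.00722, with a log2 difference of -0.73 at 72 h in place of -0.27. Within complex I the ratio was 6.38 ± 0.307 in sham and 5.13 ± 0.904 at 72 h (permutation p = 0.255, and 0.00617 with geometric means). Within complex III it was 6.07 ± 0.275 and 4.85 ± 0.685 (permutation p = 0.132, and 0.0304 without replicate 2 at 24 h), and within complex IV 8.997 ± 0.293 and 8.58 ± 1.45 (permutation p = 0.764). With geometric means the 72 h log2 difference of complex IV was -0.64 in place of -0.08. For complex V the ratio was 0.103 ± 0.00864 in sham and 0.0455 ± 0.0123 at 72 h (permutation p = 0.00838, adjusted p = 0.0168). Both of its mitochondrial members, mt-Atp6 and mt-Atp8, lie in the copied stretch, and with the copies' counts added the log2 difference at 72 h was -0.88 in place of -1.20.

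The ratio of mt mRNA to the summed cardiomyocyte markers was 3.14, 3.42 and 3.05 in sham, 4.06, 2.94 and 6.25 at 24 h and 2.80, 3.51 and 2.67 at 72 h. The sham and 72 h libraries overlapped, and the log2 difference at 72 h was -0.11 (SE 0.13). The permutation p over 6 groups was 0.326 (adjusted p = 0.355), 0.0311 without replicate 2 at 24 h and 0.0263 with geometric means, which put the 72 h difference at -0.47. All 12 cardiomyocyte markers were called lower at 72 h (median -2.00) and 9 of 12 at 24 h (median -0.82), with Myl2, a ventricular myosin light chain, at 8274 ± 455 CPM in sham and 1654 ± 339 at 72 h.

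**Figure D5:**
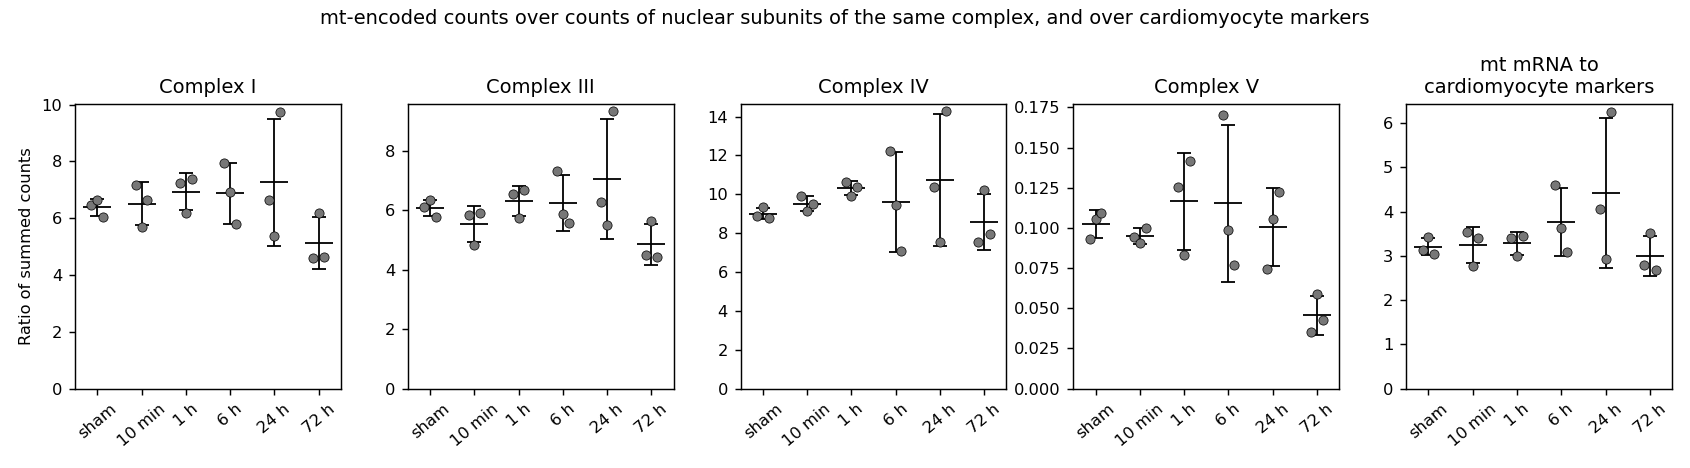
Ratio of summed counts per library (points; linear axes from 0, mean and SD of 3 mice) of mt-encoded to nuclear subunits of complexes I, III, IV and V, and of mt mRNA to cardiomyocyte markers. Only in the complex V panel do all 72 h libraries (0.03497 to 0.05902) lie below every library of all other groups.

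Nuclear genes supply the proteins that make and process mt RNA. Of 19 genes for transcription and upkeep of the mitochondrial genome, 14 were lower and 2 higher at 72 h (median -0.67), where 32.2% of all genes were called lower and 34.2% higher. Tfam, which packages the genome and starts transcription, went from 42.9 ± 0.989 to 26.1 ± 0.375 CPM (log2 fold change -0.72, adjusted p = 1.37e-06 by edgeR), a call lost with library totals and with limma. The RNA polymerase Polrmt was at -0.90 (adjusted p = 1.01e-06), the elongation factor Tefm at -1.05 and the helicase Twnk at -1.24. The 2 higher genes, named after their values were seen, were the primase Primpol (1.69) and the regulator Nrf1 (0.30).

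Of 28 genes for processing and stability of mt RNA, 22 were lower and 2 higher at 72 h (median -0.64), against the same 32.2% and 34.2% of all genes. Lrpprc had 176.4 ± 6.88 CPM in sham and 54.4 ± 2.94 CPM at 72 h (-1.70 on the log2 scale, SE 0.12, adjusted p = 1.31e-09 by edgeR), and its partner Slirp had 4.47 ± 0.781 and 2.81 ± 0.795 CPM (-0.67, adjusted p = 0.0087), a call lost without replicate 2 of sham, with library totals (-0.09) and with limma (-0.06). Lrpprc was also lower at 24 h (-0.70, adjusted p = 0.000166). The degrading enzymes differed: the helicase Supv3l1 was at -1.30 (adjusted p = 4.16e-08), whereas Pnpt1, its nuclease partner, had 21.2 ± 1.90 CPM in sham and 21.6 ± 1.92 at 72 h (0.02, SE 0.11, adjusted p = 0.868). The mitochondrial poly(A) polymerase Mtpap was at -0.59 (adjusted p = 0.000124), a call lost with library totals and with limma. The 2 higher genes, named after their values were seen, were the nucleases Rexo2 (0.48) and Pde12 (0.36).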

How the data were processed

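RNA counts of 18 libraries were analysed. Reads were trimmed, aligned and counted by the authors; cutadapt 1.18, HISAT2 2.1.0, featureCounts and the build mm10 are named per the submitters' processing notes, while options, annotation, and use of strand and of multi-mapped reads are not given in the sources used here. The deposited counts are whole numbers per Ensembl gene; the deposited FPKM values are scaled to gene length and library total and served only to check gene lengths and as an alternative; levels per length in the text are computed from the counts. Within the FPKM table, the 6 h columns of replicates 2 and 3 held each other's libraries. Symbols and coordinates are from GENCODE M21 (30489 IDs matched, 94 did not).

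Genes were filtered with filterByExpr, scaled by TMM and fitted with edgeR 4.0.16 (quasi-likelihood, robust, 1 mean per group), or with the summed mt mRNA counts as library size. Adjusted p-values are Benjamini-Hochberg over 16311 genes. Class shares and ratios were tested by permutation of log2 values, adjusted over 12 tests of 6 groups and 60 of single times. The test of 6 groups used purpose-written code, and the exact tests of single times used SciPy 1.17.1. Nuclear copies are annotated transcripts aligned to mt genes with BLAST 2.17.0 (at least 90% identity over at least 80% of their length). Replicates are separate mice; every pair in a group differed by more than counting noise, and the labels give no batch. Scripts were tested on simulated data. The members and gene lists were chosen with earlier results of these data known. All mRNAs, rRNAs and tested tRNA genes could be named, at most 5 nuclear copies, and per list the 3 smallest adjusted p plus 8 regulators; Gm13339 was added for its sequence. Alternatives were DESeq2 1.42.0, limma 3.58.1 on log2(FPKM + 1), other scalings and filters, the 6 compared libraries alone, and each replicate left out.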

Additional observations from a re-analysis of the deposited data

How the results depend on the processing

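All 29 tested members were called lower at 72 h under each alternative except library totals (28). Across alternatives, values of summed results were labelled the same in 861 cases, moved in 59, stronger in 8 and weaker in 1. A log2 difference was the same if it lay within 1 pooled replicate SD of the main value. A 6-group p was the same if it stayed on its side of 0.05. Named genes kept their call in 2482 cases, lost it in 155 and reversed in 0. Causes of the changes below were not tested. As a share of TMM-scaled library size, the log2 difference of mt mRNA was 0.1043 at 6 h, -0.4339 at 24 h and -1.950 at 72 h. At 72 h that of rRNA was -2.446 and of tRNA -2.636. As a share of counts outside mt genes these were -1.633, -2.130 and -2.319 at 72 h. With geometric means, the 6-group permutation p was 0.05682 for rRNA to mRNA, 0.006350 for mt-Nd6, 0.007220 for mt to nuclear subunits, 0.006170 for complex I and 0.02631 for cardiomyocyte markers. The 72 h differences were then -0.07352 for rRNA to mRNA, 0.4048 for tRNA to mRNA, 0.1764 for mt-Nd6, -0.7287 for all nuclear subunits, -0.6900 for complex I, -0.6414 for complex IV and -0.4743 for the markers, and complex IV had -0.2210 at 10 min and -0.05066 at 1 h. With nuclear copies added, chosen after seeing the data, complex V had 0.02661 at 10 min and -0.8804 at 72 h.

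Members called changed as follows. DESeq2 called 1 each at 1 h and 6 h and 10 at 24 h, and relative to mt mRNA 3 at 10 min and 2 at 1 h. Library totals gave 3 at 24 h and 2 from 6 h to 24 h, limma 2 and 1, and no filter 1 at 1 h. With only the 6 libraries compared there were 3 at 1 h, 2 at 6 h, 2 between 10 min and 1 h and 0 from 6 h to 24 h, and relative to mt mRNA 4 at 10 min, 5 at 1 h and 3 at 6 h. Relative to mt mRNA, a minimum of 10 counts gave 2 at 10 min and 2 at 6 h, and the geometric mean 2 at 10 min. Without single replicates the counts ran from 3 (without replicate 2 at 24 h) to 9 at 24 h, from 2 to 12 between 6 h and 24 h and from 0 to 1 at 6 h. Relative to mt mRNA they ran from 0 to 1 at 1 h, 0 to 2 at 6 h, 1 to 3 at 24 h and 10 to 13 at 72 h. The 6-group permutation p ran from 0.01228 to 0.3231 for mt-Nd6, 0.03045 to 0.3573 for complex III and 0.03106 to 0.5678 for the markers.

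Replicate numbers gave no clear sign of pairing the mice. Deviations of libraries with the same number correlated from -0.2556 to 0.2524 (45 pairs, median 0.03505). Those with different numbers correlated from -0.3547 to 0.451 (90 pairs, median -0.01279). With the replicate number as a block, 1 member was called at 6 h, 7 at 24 h, 11 from 6 h to 24 h, and 2 at 1 h relative to mt mRNA. Genes with few counts, such as mt-Ts2 and mt-Ta, are limited by depth.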
